A study of Mus musculus with 4 samples.

Results

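Messenger RNA of 41 genes of DNA mismatch repair and of the repair of DNA breaks was compared between renal tubular epithelial cells of 2 mouse genotypes. The genes were chosen by name, 39 of them had a row among the 18383 genes of the count table, and Xrcc6 and Fanci were not analysed here. KM mice were MYC fl/fl with the KspCre transgene in 1 copy (KspCre/+), and KMS mice were SETD2 fl/fl, MYC fl/fl and KspCre/+. All were C57BL/6 and 8 weeks old, and their cells were isolated from kidney cortex. KspCre expresses Cre recombinase from the promoter of kidney-specific cadherin, which is active in tubular epithelium, and no source used here gives the share of cells that recombined. The KM controls therefore also carry Cre and the MYC alleles, and the comparison concerns the addition of the floxed SETD2 alleles. There were 2 libraries per genotype. The design text of the series speaks of triplicates and pairs the alleles differently, and the labels of the single libraries were followed. The labels do not name the animals, but transcripts of sex-linked genes, given below, differed between the 2 libraries of each genotype as between females and males. The libraries of a genotype therefore came from different animals, and the spread behind each p-value includes the difference between the sexes.

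Mismatch repair removes wrongly paired bases after replication. MutS complexes, which can contain Msh6 or Msh3, find the mismatch, MutL complexes, which can contain Pms2, Pms1 or Mlh3, act next, and the exonuclease Exo1 removes the strand. Double-strand breaks are repaired by end joining, which needs no template, or by homologous recombination, which copies the sister chromatid and is largely restricted to the S and G2 phases of the cell cycle. SETD2 trimethylates histone H3 at lysine 36. The PWWP domain of human MSH6 binds that mark, and in human cells LEDGF, the product of PSIP1, links it to the resection factor CtIP (RBBP8), so transcripts of these genes were of interest whether or not they differed.

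Total counts per library ranged from 8886496 to 18639040, and expression is given as CPM, the count scaled to 1e+06 of the TMM-adjusted library total. Setd2 had 54.3 and 58.1 CPM in KM, against 58.3 and 49.2 CPM in KMS (edgeR adjusted p = 0.843). Its log2 fold change was -0.06 ± 0.17 (SE), and counts over the whole gene do not check the deletion. Myc had 5.29 and 6.98 CPM in KM, against 6.10 and 2.19 CPM in KMS. The 8 proximal tubule markers were detected in every library, with summed values of 8432 and 6073 CPM in KM, against 15980 and 15500 CPM in KMS. The 6 markers of thick ascending limb and distal tubule summed to 3323 and 877 CPM in KM, against 5811 and 3364 CPM in KMS. Those of podocytes, 5 genes, summed to 1896 and 920 CPM in KM, against 2218 and 2060 CPM in KMS. Sums of collecting duct and endothelial markers overlapped between the genotypes. Markers of other cells were also present, and KM replicate 2 stood apart from the other libraries. The 14 markers of cycling cells summed to 109 CPM in KM replicate 1, 243 in KM replicate 2, 92.0 in KMS replicate 1 and 77.1 in KMS replicate 2. The 7 leukocyte markers summed in the same order to 286, 498, 221 and 130 CPM, the 6 fibroblast and pericyte markers to 159, 207, 101 and 95.7 CPM, and the 5 urothelial markers to 8.37, 74.3, 1.24 and 2.19 CPM, with Upk2, Upk3a and Krt5 at 0 in at least 1 library. The libraries numbered 1 were rich in Xist (12967 and 4363 counts, against 10 and 1), and those numbered 2 in transcripts of 4 Y-linked genes (3410 and 1471 counts, against 1 and 0). Ratios within the pair of libraries numbered 1 and the pair numbered 2, each after adding 0.5 CPM, therefore compare libraries of like sex.

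**Figure D1:**
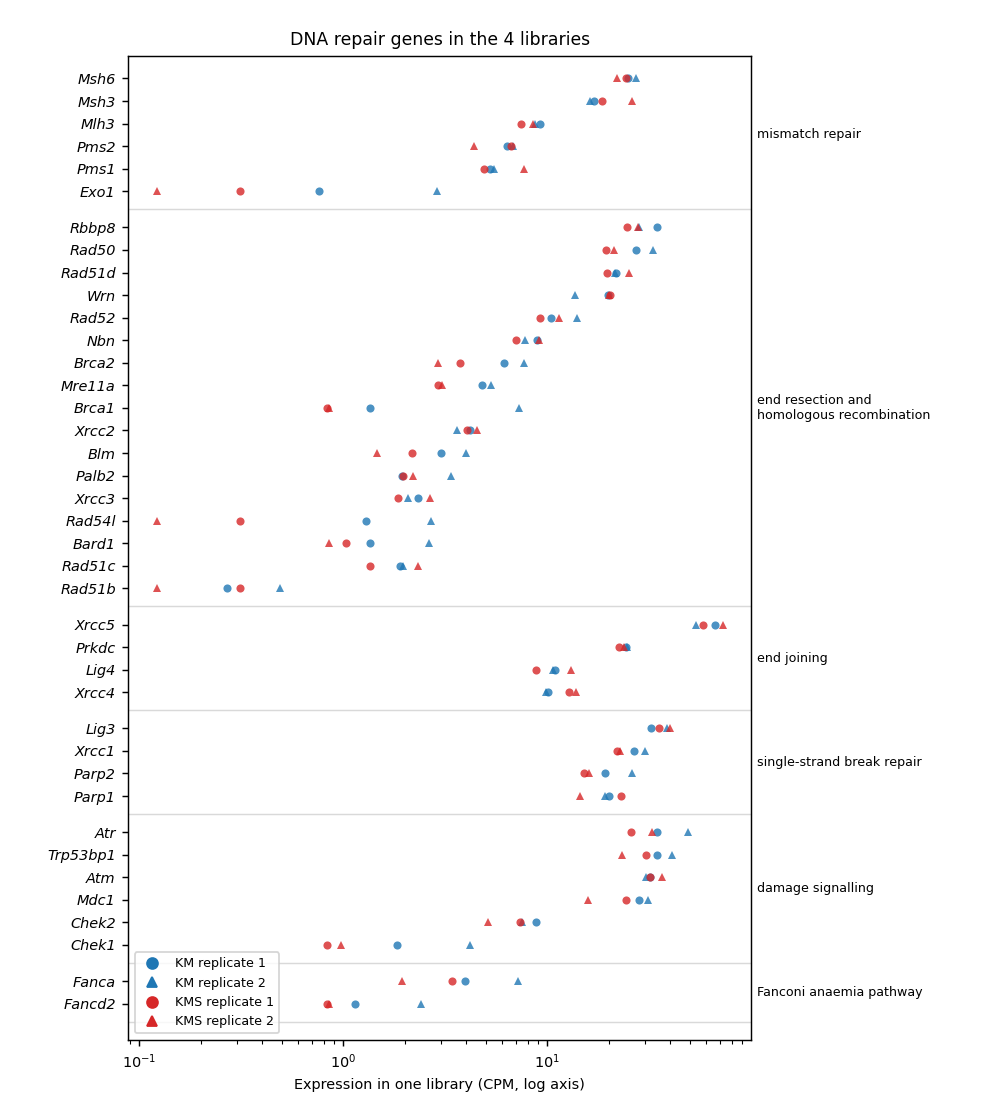
CPM of each of the 39 repair genes in each library (log axis), ordered within each pathway by the mean in KM; blue marks KM, red marks KMS, circles replicate 1 and triangles replicate 2. Exo1, Brca1, Rad54l and Chek1 have both red points to the left of both blue points and the KM replicate 2 point farthest to the right, whereas Prkdc and Lig3 vary little.

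Several genes of recombination, checkpoint signalling and the Fanconi pathway had lower values in KMS, such as Rad54l, Brca1, Brca2, Chek1 and Fanca. For 7 of the 16 tested recombination genes the genotypes overlapped, and Wrn was higher in KMS. The end joining genes Xrcc5, Prkdc and Lig4 had values close to those in KM, and Xrcc4 had higher values in KMS. None of the differences passed the test. The count filter kept 37 of the 39 genes, and Exo1 and Rad51b did not pass it. Of the 37, 0 were called (adjusted p under 0.05, edgeR quasi-likelihood test), where 0.0333% of the 15002 genes tested were. Called genes also numbered 0 of the 37 with DESeq2, which called 5.96% of all genes lower in KMS and 5.82% higher, with limma-voom, and in an edgeR fit with a term for sex, in which 3.5% of all genes were called lower in KMS and 1.93% higher. An unadjusted edgeR p under 0.05 was reached by 5 of the 37, all with lower values in KMS, where 14.1% of all genes reached it in that direction and 12.2% in the other. These were Rad54l, Brca2, Chek1, Rad50 and Brca1. Both KMS libraries lay below both KM libraries for 20 of the 37 and above them for 4, where the shares of all genes were 31.3% and 29%. The median log2 fold change was -0.25 over the 37 and -0.01 over all genes tested, and 26 of the 37 were negative, where 50.7% of all genes were. Within the pairs of libraries the medians were -0.25 for replicate 1 and -0.40 for replicate 2, and 21 of the 37 were negative in both, where 36.8% of all genes were. The leukocyte, fibroblast, urothelial and cycling cell markers had lower sums in KMS as well. Markers of proximal tubule, of thick ascending limb and distal tubule, and of podocytes had higher sums. The part of these cells in the values was not tested. In bulk RNA, fewer cells of a type and less RNA per cell cannot be told apart. By the authors' deposited table, 0 of the 39 had an adjusted p under 0.05 (lowest 0.306, for Rad54l), where 2.22% of all genes did.

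**Figure D2:**
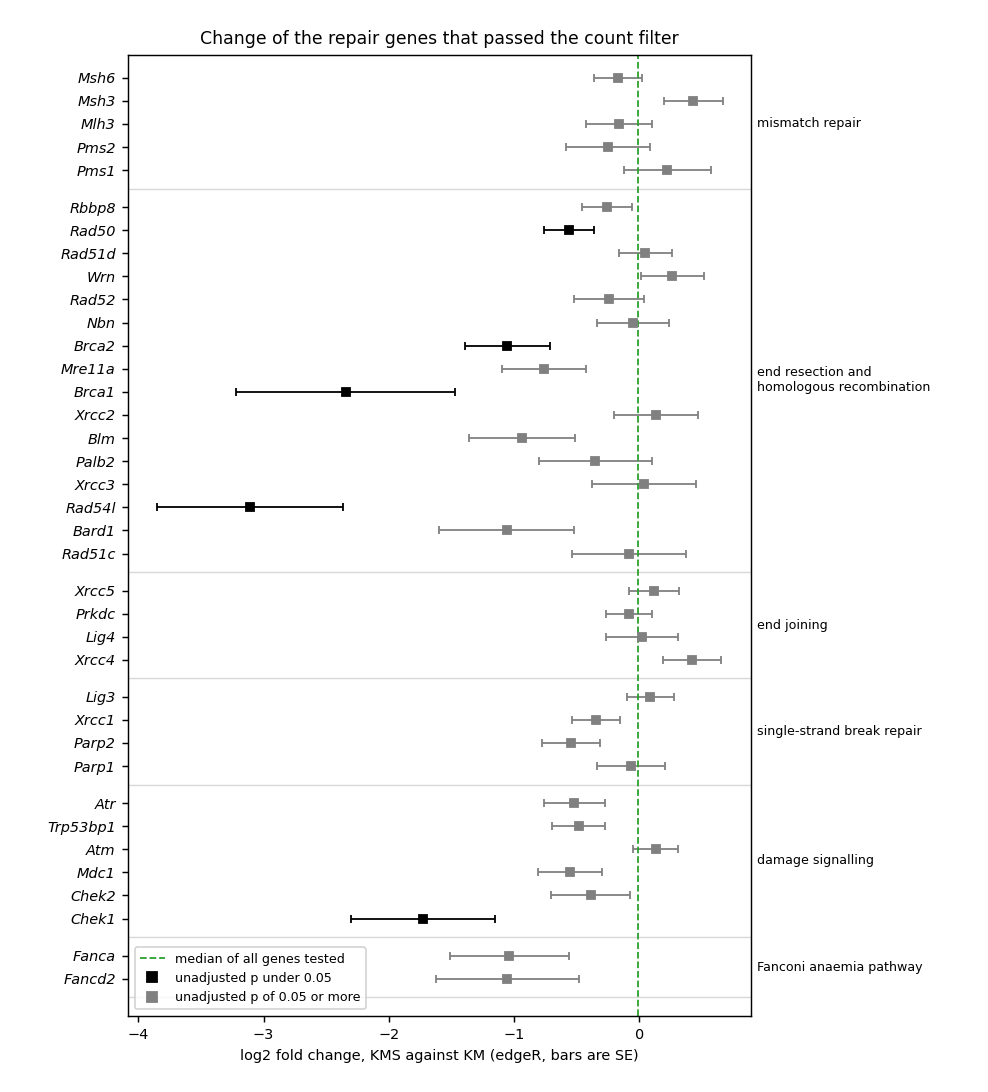
log2 fold change of KMS against KM for the 37 repair genes that passed the count filter, grouped by pathway, with SE bars from edgeR; black squares have an unadjusted p under 0.05 and the dashed line is the median of all genes tested (-0.01). Rad54l and Brca1 lie farthest to the left, at -3.11 and -2.35, and 0 of the 37 have an adjusted p under 0.05.

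Among genes of mismatch repair that recognise mismatches, Msh6 had similar values in both genotypes and Msh3 had higher values in KMS. Neither was called. Msh6, which serves to find single mismatches, had 24.8 and 27.2 CPM in KM, against 24.2 and 22.0 CPM in KMS. The KMS values lay just below the KM values, and the log2 fold change of -0.17 ± 0.19 (SE) was smaller than its error (edgeR adjusted p = 0.602). Msh3, which serves to find insertion and deletion loops, had 16.9 and 16.1 CPM in KM, against 18.6 and 25.9 CPM in KMS. It was the only gene of this pathway with both KMS libraries above both KM libraries, where 29% of all genes had this. The difference came mostly through KMS replicate 2 (log2 fold change 0.43 ± 0.24 SE, edgeR adjusted p = 0.294). The MutL subunit gene Pms2 had 6.32 and 6.80 CPM in KM, against 6.62 and 4.37 CPM in KMS. Pms1 had 5.24 and 5.45 CPM in KM, against 4.86 and 7.65 CPM in KMS, and for both genes the groups overlapped (edgeR adjusted p = 0.669 and 0.715). Mlh3, whose product is best known from meiotic recombination, had a log2 fold change of -0.16 ± 0.27 (SE, edgeR adjusted p = 0.725).

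Exo1, the exonuclease that also resects double-strand breaks, had the lowest KMS to KM ratio of this pathway. It had 14 and 47 counts in KM, against 3 and 1 counts in KMS, which is 0.756 and 2.88 CPM against 0.310 and 0.122 CPM. The 2 KM libraries differed from each other more than KM replicate 1 differed from KMS replicate 1. The summed counts, corrected for depth, gave a KMS to KM ratio of 0.128 with a 95% exact interval of 0.0337 to 0.344, which covers counting error only. Too few counts kept it from the filtered fit, and without a filter edgeR fitted -2.95 ± 0.97 on the log2 scale (SE, adjusted p = 0.148).

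The partners of these subunits belong to a list of 16 further genes of mismatch repair, the sliding clamp and its loader. Of these, 13 were negative, with a median log2 fold change of -0.15 and 0 called. An unadjusted edgeR p under 0.05 was reached by 4, all lower in KMS, beside 14.1% of all genes. The DNA polymerase delta subunit gene Pold1 had 5.51 and 10.8 CPM in KM, against 4.03 and 2.79 CPM in KMS (edgeR adjusted p = 0.150).

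Genes of end resection and homologous recombination, 16 of the 37 tested, held 4 of the 5 unadjusted edgeR p under 0.05. All 4 were lower in KMS, where 14.1% of all genes reached it in that direction. Of the 16 that passed the filter, 12 were negative, with a median log2 fold change of -0.30. Rad54l, a motor protein that acts during strand invasion of the sister duplex, had 24 and 44 counts in KM, against 3 and 1 in KMS, or 1.30 and 2.69 CPM against 0.310 and 0.122 CPM. The groups did not overlap, and 15.4% of its exon bases lie opposite Lrrc41 on the other strand. The depth-corrected ratio of the counts was 0.115 with a 95% exact interval of 0.0303 to 0.307, which edgeR fitted as -3.11 ± 0.74 on the log2 scale (SE, adjusted p = 0.093). Brca2, a mediator of recombination on single-stranded DNA, had 6.15 and 7.72 CPM in KM, against 3.72 and 2.92 CPM in KMS. The libraries of each genotype were close to each other, with a fitted change of -1.06 ± 0.34 (log2, SE, edgeR adjusted p = 0.128). Rad50, the ATPase of the Mre11-Rad50-Nbn complex that binds broken ends, had 27.2 and 32.8 CPM in KM, against 19.4 and 21.1 CPM in KMS (log2 fold change -0.57 ± 0.20 SE, edgeR adjusted p = 0.150). Of its partners, the nuclease gene Mre11a lay below KM in both KMS libraries (5.04 ± 0.33 and 2.97 ± 0.10 CPM, SD, n = 2), and Nbn overlapped (8.34 ± 0.80 and 8.07 ± 1.47 CPM).

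Brca1, a ubiquitin ligase subunit that promotes resection, had 1.35 and 7.29 CPM in KM, against 0.828 and 0.850 CPM in KMS. The high value of KM replicate 2 carried most of the difference. The log2 fold change of -2.35 ± 0.88 (SE, edgeR adjusted p = 0.163) became -0.68 without KM replicate 2 (edgeR adjusted p = 0.747) and -3.09 without KM replicate 1 (edgeR adjusted p = 0.0090). Without KM replicate 1, Exo1, Rad54l and Chek1 also passed, at -3.62, -3.53 and -2.19 (edgeR adjusted p = 0.030, 0.035 and 0.049), where 7.83% of all genes were called lower in KMS. KM then rests on replicate 2 alone, and its spread is assumed to be that of KMS. That library had the highest sums of cycling cell, leukocyte, fibroblast and pericyte, and urothelial markers. It also had the lowest sums of proximal tubule, thick ascending limb and distal tubule, and podocyte markers. Which of these goes with the repair genes was not tested. Without KM replicate 2, the values were -2.49 for Rad54l and -1.02 for Chek1, and neither passed (edgeR adjusted p = 0.307 and 0.579).

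Rbbp8, the gene of the resection factor CtIP, had 34.4 and 28.2 CPM in KM, against 24.6 and 27.8 CPM in KMS. The nearest libraries of the genotypes differed by less than the libraries within either one, with a fitted change of -0.26 ± 0.20 (log2, SE, edgeR adjusted p = 0.451). Psip1, which encodes LEDGF, had 38.1 and 44.7 CPM in KM, against 28.4 and 26.7 CPM in KMS (log2 fold change -0.59 ± 0.18 SE, edgeR adjusted p = 0.124). Blm and Wrn, helicases of the RecQ family, went apart in value. Blm had 3.02 and 3.98 CPM in KM, against 2.17 and 1.46 CPM in KMS, and Wrn had 19.9 and 13.7 CPM in KM, against 20.2 and 20.2 CPM in KMS (edgeR adjusted p = 0.223 and 0.532). Bard1, the partner of Brca1, lay lower in both KMS libraries (1.99 ± 0.91 and 0.942 ± 0.13 CPM, SD, n = 2). Palb2, which joins Brca1 to Brca2, the recombination factor genes Rad51c, Rad51d, Xrcc2 and Xrcc3, and Rad52, which anneals single strands, all overlapped between the genotypes, with log2 fold changes from -0.35 to 0.13. Rad51b had 5 and 8 counts in KM, against 3 and 1 in KMS, too few for the filter.

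Of 24 further recombination genes with a row, 22 were tested, 12 were negative, the median was -0.19 and 0 were called. An unadjusted edgeR p under 0.05 was reached by 3 lower and 2 higher in KMS, beside 14.1% and 12.2% of all genes. Fignl1, an ATPase that acts in recombination, had 1.62 and 5.08 CPM in KM, against 0.310 and 0.486 CPM in KMS (log2 fold change -3.06 ± 0.78 SE, edgeR adjusted p = 0.099). Zswim7, another gene that acts in recombination, had higher values in KMS, 9.10 and 9.60 CPM against 5.29 and 4.35 CPM (edgeR adjusted p = 0.117).

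In end joining, 3 of 4 genes were positive and the median on the log2 scale was 0.07. Xrcc5, which encodes Ku80, the ring subunit that caps broken ends, had 66.0 and 53.8 CPM in KM, against 57.7 and 72.3 CPM in KMS, with overlap. Prkdc, the catalytic subunit of the DNA-dependent kinase that Ku recruits, had 24.3 and 24.6 CPM in KM, against 22.3 and 23.8 CPM in KMS, so the 4 libraries lay within a narrow range. The log2 fold changes were 0.12 ± 0.20 for Xrcc5 and -0.08 ± 0.18 for Prkdc (SE, edgeR adjusted p = 0.742 and 0.805). Lig4, the ligase of this pathway, had 10.9 and 10.7 CPM in KM, against 8.79 and 13.1 CPM in KMS, with overlap. Xrcc4, the scaffold that holds Lig4, had 10.1 and 9.86 CPM in KM, against 12.8 and 13.9 CPM in KMS. It was the only gene of this pathway with both KMS libraries higher, where 29% of all genes had this (log2 fold change 0.42 ± 0.23 SE, edgeR adjusted p = 0.302). Of 7 further end joining genes, 4 were negative, the median was -0.24 and 0 were called. Only Nhej1 had an unadjusted edgeR p under 0.05, higher in KMS, where 12.2% of all genes reached it in that direction. Nhej1, which encodes the Xrcc4-like factor XLF, had 1.57 and 2.02 CPM in KM, against 4.34 and 3.89 CPM in KMS (log2 fold change 1.20 ± 0.38 SE, edgeR adjusted p = 0.128). Polq, the polymerase of a joining route that uses short homologies, had 0.918 and 2.33 CPM in KM, against 0.828 and 0.364 CPM in KMS (edgeR adjusted p = 0.264).

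In single-strand break repair, Parp2 had the lowest log2 fold change. Parp2, a second poly(ADP-ribose) polymerase that senses breaks, had 19.2 and 26.0 CPM in KM, against 15.1 and 15.9 CPM in KMS (log2 fold change -0.54 ± 0.23 SE, edgeR adjusted p = 0.202). Xrcc1, the scaffold of the pathway, had 26.5 and 30.2 CPM in KM, against 21.8 and 22.7 CPM in KMS (edgeR adjusted p = 0.294). For both genes the KMS libraries lay below the KM libraries. Parp1, the main break sensor, had 20.1 and 19.2 CPM in KM, against 23.1 and 14.5 CPM in KMS, and its 2 KMS libraries enclosed the KM values. Lig3, the ligase that Xrcc1 binds, had 32.4 and 38.6 CPM in KM, against 35.3 and 40.1 CPM in KMS (log2 fold change 0.09 ± 0.19 SE, edgeR adjusted p = 0.803). Of its exon bases, 25.1% are shared with Rffl on the opposite strand, and no source used here says whether counting used strand.

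Damage signalling also held mostly lower values, 5 of 6 genes negative with a median log2 fold change of -0.50. The groups overlapped for 0 of the 6, where 31.3% of all genes lay lower in KMS without overlap and 29% higher. Chek1, the checkpoint kinase activated during replication stress, had 1.84 and 4.16 CPM in KM, against 0.828 and 0.972 CPM in KMS (log2 fold change -1.73 ± 0.58 SE, edgeR adjusted p = 0.136). KM replicate 2 was again the highest library. Its upstream kinase Atr had 34.3 and 49.0 CPM in KM, against 25.8 and 32.4 CPM in KMS (log2 fold change -0.52 ± 0.24 SE, edgeR adjusted p = 0.235). Mdc1, the adaptor that spreads the signal from phosphorylated histone H2AX, had 28.2 and 31.0 CPM in KM, against 24.4 and 15.8 CPM in KMS (edgeR adjusted p = 0.229). Trp53bp1, which restrains resection in favour of end joining, had 34.4 and 40.8 CPM in KM, against 30.3 and 23.3 CPM in KMS (edgeR adjusted p = 0.213). In both of these genes KMS replicate 2 was the lowest library, and 15% of the exon bases of Trp53bp1 overlap Tubgcp4 on the opposite strand. Atm, the kinase activated by double-strand breaks, was the gene of this group with higher values in KMS, though KM replicate 1 and KMS replicate 1 were nearly equal. It had 31.91 and 30.61 CPM in KM, against 31.96 and 36.56 CPM in KMS (edgeR adjusted p = 0.674). Chek2, the effector kinase of Atm, was lower (8.17 ± 0.90 and 6.22 ± 1.58 CPM, SD, n = 2, edgeR adjusted p = 0.469). Of 15 further signalling genes, 8 were negative, the median was -0.22 and 0 were called. An unadjusted edgeR p under 0.05 was reached by 1, lower in KMS, beside 14.1% of all genes. That gene, Topbp1, the activator of Atr, had 25.9 and 37.9 CPM in KM, against 20.6 and 17.3 CPM in KMS (edgeR adjusted p = 0.137), and the ubiquitin ligase gene Rnf8 had 18.1 and 18.7 CPM in KM, against 23.5 and 26.1 CPM in KMS (edgeR adjusted p = 0.219).

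Both analysed genes of the Fanconi anaemia pathway, which unhooks crosslinks between DNA strands, lay lower in KMS without overlap, as 31.3% of all genes did. Fanca, a subunit of the core ligase complex, had 3.94 and 7.16 CPM in KM, against 3.41 and 1.94 CPM in KMS (log2 fold change -1.04 ± 0.47 SE, edgeR adjusted p = 0.226). Fancd2, which that complex ubiquitinates, had 1.13 and 2.39 CPM in KM, against 0.828 and 0.850 CPM in KMS (log2 fold change -1.06 ± 0.57 SE, edgeR adjusted p = 0.289). In the pair numbered 1 the log2 ratios were only -0.18 and -0.30, and in the pair numbered 2 they were -1.65 and -1.10. Of 9 further Fanconi genes, 6 were negative, the median was -0.11 and 0 were called, with 0 at an unadjusted p under 0.05. Fancb had 2.21 and 3.49 CPM in KM, against 1.97 and 2.07 CPM in KMS, and the deubiquitinase gene Usp1 had 37.4 and 42.5 CPM in KM, against 30.8 and 39.7 CPM in KMS (edgeR adjusted p = 0.496 and 0.604).

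**Figure D3:**
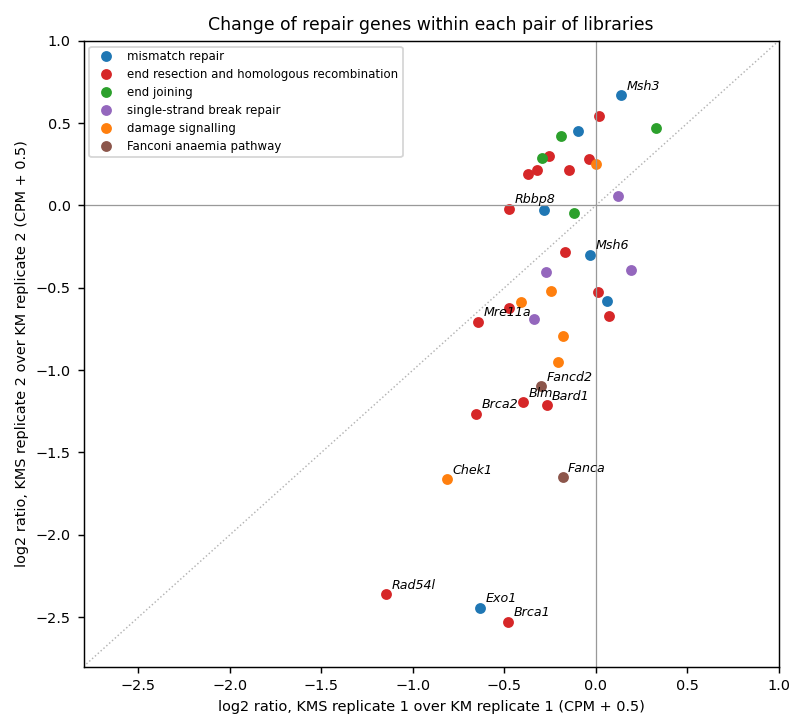
log2 CPM ratio of KMS over KM within the replicate 1 libraries (horizontal) and within the replicate 2 libraries (vertical) for the 39 repair genes, coloured by pathway; the dotted line marks equal ratios. Exo1, Brca1, Rad54l, Chek1 and Fanca lie far below the dotted line, with ratios of -2.44, -2.53, -2.36, -1.66 and -1.65 in the pair numbered 2, while most other genes lie within 1 unit of 0 on both axes.

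Most of the genes with the lowest log2 fold changes also differed between the 2 KM libraries. Brca1, Exo1, Chek1, Rad54l, Fancd2, Fanca and Bard1 were higher in KM replicate 2 than in KM replicate 1 by 2.07, 1.43, 0.998, 0.83, 0.82, 0.79 and 0.76 on the log2 scale, beside a median of 0.12 over the 37 tested genes and -0.01 over all genes. Brca2 was an exception, with 0.30. In KMS the corresponding differences between replicates ran from -0.68 for Fanca to 0.15 for Chek1. The markers of cycling cells were likewise higher in KM replicate 2, by a median of 1.12, and 12 of the 14 were negative in KMS against KM (median -1.70). An unadjusted edgeR p under 0.05 was reached by 8 of them, all lower in KMS, beside 14.1% of all genes. The median log2 ratio of the 14 was -0.51 in the pair numbered 1, where 11 were negative. In the pair numbered 2 it was -1.98, where 12 were negative. Mki67, the proliferation marker, lay below these medians, at -1.91 in the pair numbered 1 and -3.82 in the pair numbered 2. Leukocyte, fibroblast and pericyte, and urothelial markers were also higher in KM replicate 2, by medians of 0.72, 0.39 and 2.76. Those of proximal tubule, thick ascending limb and distal tubule, collecting duct, podocytes and endothelium had negative medians. Whether cycling or other cells account for the repair genes was not tested.

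**Figure D4:**
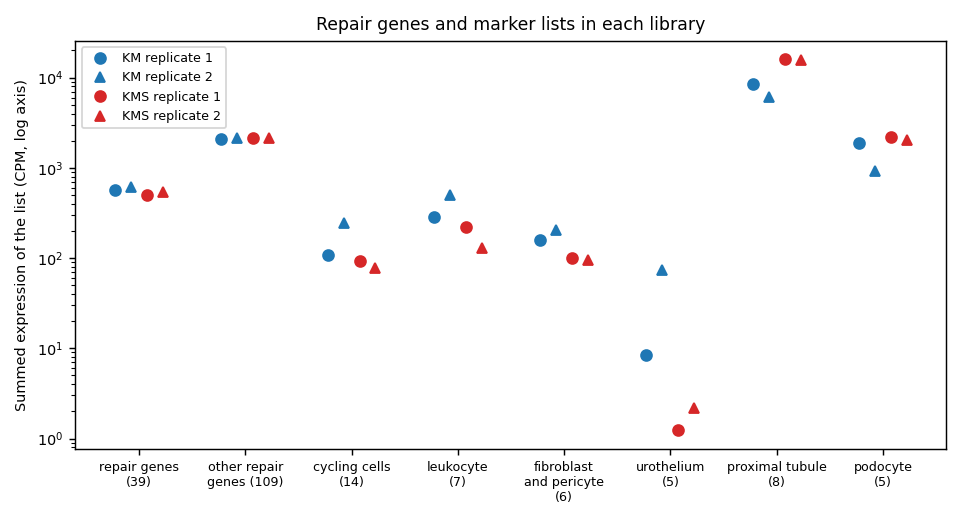
Summed CPM of the repair genes, of other repair genes and of marker lists in each library (log axis; the number of genes in parentheses), with colours and shapes for genotype and replicate. The 39 repair genes sum to between 504 and 612 CPM in every library, whereas the cycling cell markers run from 77.1 to 243 CPM and the urothelial markers from 1.24 to 74.3 CPM.

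Genes with few counts had the lower log2 fold changes, by a mean CPM that is not independent of the change. CPM here is a measure of counts and not of level per length. The mean was taken over both genotypes, so low values in KMS also lower it. The count filter could be passed through the deeper KM libraries alone, as by Rad54l. Part of the relation below was therefore fixed in advance. A split at a mean of 5 CPM, chosen after the values were seen, put 12 of the 37 tested genes in a low class with a median log2 fold change of -0.99 and 10 negative, and 25 in a high class with a median of -0.17 and 16 negative. Over all genes tested the medians of these classes were -0.33 and 0.05. Across the 37 genes, which share libraries and are not independent, the mean CPM on a log2 scale and the log2 fold change had a Pearson r of 0.57 and a Spearman rho of 0.42. Summed over the 39 genes, expression was 568 and 612 CPM in KM, against 504 and 538 CPM in KMS. Per kilobase of exon (RPKM, from the summed exons of GENCODE M21), Xrcc5 stood highest with means of 23.4 in KM and 25.4 in KMS. Parp2, Msh6, Rad51d and Rad50 followed in KM with 6.24, 5.98, 5.84 and 5.58, values closer to each other than the spread of Parp2 and Rad50 between libraries. The lowest means in KM were those of Rad51b (0.101), Exo1 (0.216), Fancd2 (0.222) and Rad54l (0.259), and in KMS Exo1 (0.0256) and Rad54l (0.0280) stood lowest.

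Genes of DNA replication and repair often carry sites for E2F factors, which act at the start of S phase, so promoters were searched on both strands for 3 of their motifs, of which the first was TTGGCGC, the next was written TTCCCGC and the last was spelled TTCGCGC. The windows, from RefSeq with the build GRCm38.p6, span 250 bases before to 50 after each transcription start, and 30 of the 39 genes had one. At least 1 of these motifs was present for 15 of the 30, or 50%, against 16% of the 10261 tested genes with a window and 9.2% of all 27025 genes in the table. By pathway this was 4 of 5 for mismatch repair, 4 of 6 for damage signalling, 5 of 11 for recombination, 2 of 3 for end joining and 0 of 4 for single-strand break repair. Windows are shown for genes of small unadjusted p that had one and for Msh6, written along each gene's own strand with the motif matches in capitals.
Brca1 chr11:101551906-101552205 (minus strand): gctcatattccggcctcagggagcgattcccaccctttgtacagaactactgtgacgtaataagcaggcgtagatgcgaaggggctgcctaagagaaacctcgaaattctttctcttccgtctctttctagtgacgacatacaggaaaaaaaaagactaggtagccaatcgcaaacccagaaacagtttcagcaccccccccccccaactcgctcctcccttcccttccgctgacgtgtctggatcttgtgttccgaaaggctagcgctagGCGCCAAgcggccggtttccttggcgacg
Brca2 chr5:150522371-150522670 (plus strand): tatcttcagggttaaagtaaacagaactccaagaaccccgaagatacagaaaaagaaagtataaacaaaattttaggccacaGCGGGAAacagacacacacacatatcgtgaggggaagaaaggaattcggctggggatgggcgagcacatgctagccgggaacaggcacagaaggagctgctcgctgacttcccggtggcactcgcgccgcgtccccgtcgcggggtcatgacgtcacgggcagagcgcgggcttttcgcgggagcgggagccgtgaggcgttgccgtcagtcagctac
Chek1 chr9:36726609-36726908 (minus strand): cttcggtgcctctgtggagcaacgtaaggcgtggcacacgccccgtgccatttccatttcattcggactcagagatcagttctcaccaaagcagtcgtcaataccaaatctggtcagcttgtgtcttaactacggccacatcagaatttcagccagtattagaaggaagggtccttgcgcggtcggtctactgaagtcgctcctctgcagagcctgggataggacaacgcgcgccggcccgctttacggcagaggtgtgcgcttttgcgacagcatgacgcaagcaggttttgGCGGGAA
Rad54l chr4:116123641-116123940 (minus strand): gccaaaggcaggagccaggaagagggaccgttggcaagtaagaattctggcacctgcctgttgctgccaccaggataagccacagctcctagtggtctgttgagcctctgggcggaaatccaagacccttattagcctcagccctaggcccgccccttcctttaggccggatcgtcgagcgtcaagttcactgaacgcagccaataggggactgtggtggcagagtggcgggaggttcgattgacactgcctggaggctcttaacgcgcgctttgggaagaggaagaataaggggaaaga
Msh6 chr17:87974800-87975099 (plus strand): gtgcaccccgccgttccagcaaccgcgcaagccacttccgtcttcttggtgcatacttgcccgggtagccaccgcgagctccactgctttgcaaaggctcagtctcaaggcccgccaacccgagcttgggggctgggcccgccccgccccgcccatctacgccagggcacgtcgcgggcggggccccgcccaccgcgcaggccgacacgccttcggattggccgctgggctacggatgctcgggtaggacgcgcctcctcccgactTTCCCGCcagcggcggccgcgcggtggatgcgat
Brca1, Brca2, Chek1 and Msh6 each have 1 match, and Rad54l, the gene with the lowest log2 fold change, has none in this window. Whether a motif goes with the difference was not tested, and genes without a window, among them Exo1, Rad50 and Fancd2, are not covered. For the 15 tested genes with a motif the median log2 fold change was -0.25 and 10 were negative, and for the 14 without it was -0.42 and 11 were negative. Over all tested genes with a window the medians were -0.04 with a motif and 0.01 without, and 52.3% and 49.5% were negative.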

How the data were processed

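RNA was selected on poly(A) tails, made into directional libraries and sequenced as read pairs of 150 bases, per the labels' protocols. Per the submitters' processing notes, HISAT2, StringTie, Trimmomatic 0.35, cutadapt 1.9.1, MACS2 2.1.1 and FastQC were used with the build GRCm38 (mm10), in roles that are not stated. No source used here names the counting program, its use of strand or its treatment of multiply matching reads, so genes that overlap on opposite strands may share reads. The authors deposited raw read counts per gene for the 4 libraries, per the file headers, and each gene had at least 10 counts in all. Beside the counts, the authors deposited a mean signal for each genotype, the ratio of these as a fold change, its log2 value, and p-values of a test that is not named. Of these, only the authors' p-values are reported. Every column of values per library matched 1 sample label (0 left unmapped).

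Counts were fitted with edgeR 4.0.16 in R 4.3.3 (TMM factors, quasi-likelihood F test, genotype as the only term, Benjamini-Hochberg over 15002 genes). Genes entered through filterByExpr with a minimum count of 10 and a minimum total of 15. A gene was called at an adjusted p under 0.05, and a positive log2 fold change is a higher value in KMS. The SE was taken from the F statistic. CPM are scaled to 1e+06 of the TMM-adjusted total of the filtered genes. Intervals of count ratios are exact (95%) and cover counting error only, as no molecular identifiers are given. Fits were checked on simulated counts. DESeq2 1.42.0 and limma-voom (limma 3.58.1) were alternatives, with other normalizations, filters, a replicate block and each library left out. Replicate numbers also separate libraries by sex, so the block and the term for sex are the same fit. Positions, exon lengths and overlaps came from GENCODE M21 (GRCm38), and promoter windows from RefSeq (GRCm38.p6).

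The genes, the pathway and marker lists and the tests were chosen with earlier results of these data known. Values in every library are given for Msh6, Rbbp8 and up to 4 genes of smallest p per pathway, and from each list of further repair genes for up to 2. Other genes named with values are members, partners of members or were chosen after their values were seen. Results for a few further genes of the lists are not reported here.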

Additional observations from a re-analysis of the deposited data

How the results depend on the processing

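The median log2 fold change of the repair genes stayed negative in every alternative run, and moved by more than the SD of the medians of the 2 pairs of libraries only with library totals, at -0.38, where the median of all genes also moved, to -0.13, so the difference between them stayed similar. Leaving out 1 library gave medians from -0.28 to -0.19. Calls among the repair genes were 0 in every alternative except for 1 (Rad54l) at an adjusted p under 0.1 and the 4 without KM replicate 1, so leaving out 1 library gave 0 to 4. Over all genes the 5 calls became 3 with library totals, 3 with at least 1 CPM in 2 libraries, 1 with limma-voom, 1767 with DESeq2, 1216 at an adjusted p under 0.1, 815 with the replicate block and 0 to 1786 with 1 library left out; the cause was not tested. The deviations of same-numbered libraries from their group means correlated at 0.112 over 15002 genes, the labels do not say that the numbers mark pairs, and the block added 0 calls among the repair genes. Of 276 alternative values of the 23 genes given in every library, 13 changed sign, all of genes with a main log2 fold change between -0.25 and 0.22. Lig3 was -0.047 with library totals, Lig4 -0.047 with upper-quartile factors, -0.11 with library totals, -0.018 with limma-voom and -0.0035 with the replicate block, and Xrcc5 -0.0055 with library totals. Leaving out 1 library gave -0.022 to 0.22 for Lig3, -0.28 to 0.32 for Lig4, -0.41 to 0.25 for Parp1, -0.12 to 0.56 for Pms1, -0.55 to 0.033 for Pms2 and -0.036 to 0.31 for Xrcc5. Depth limits the low genes most: Exo1 and Rad54l rest on 4 counts in KMS.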

Other observations

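Excision repair, which removes damaged bases or stretches of a strand, was described with 2 further lists. Of 19 base excision genes, 9 were negative in KMS against KM, the median log2 fold change was 0.00 and 0 were called (edgeR). An unadjusted edgeR p under 0.05 was reached by 4, all lower in KMS, beside 14.1% of all genes. Apex1, the endonuclease that cuts at sites without a base, had 30.4 and 35.2 CPM in KM, against 16.3 and 20.8 CPM in KMS (log2 fold change -0.82 ± 0.22 SE, edgeR adjusted p = 0.102). Ung, which removes uracil from DNA, had 3.24 and 5.39 CPM in KM, against 1.45 and 0.607 CPM in KMS (log2 fold change -2.04 ± 0.55 SE, edgeR adjusted p = 0.104). Of 18 tested genes of nucleotide excision repair, the route for bulky lesions, 13 were positive, the median was 0.13 and 0 were called, with 0 at an unadjusted p under 0.05. Gtf2h5, a subunit of the helicase complex TFIIH, had 26.3 and 23.0 CPM in KM, against 27.7 and 43.6 CPM in KMS, and Cetn2, which binds the damage sensor Xpc, had 35.95 and 29.6 CPM in KM, against 37.3 and 48.6 CPM in KMS (edgeR adjusted p = 0.252 and 0.295).

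A term for sex in the model let 2 of the 106 tested repair genes outside the 37 pass, both lower in KMS (beside 3.5% of all genes), and both are named after their values were seen. These were Fignl1 and the glycosylase gene Neil3, which had 1.03 and 4.29 CPM in KM, against 0.207 and 0.364 CPM in KMS (edgeR adjusted p = 0.039 and 0.047). In KMS, Fignl1 had only 3 and 4 counts and Neil3 only 2 and 3, so both passed the count filter through KM alone. Both were higher in KM replicate 2 than in KM replicate 1, by 1.40 and 1.65 on the log2 scale. With DESeq2, Apex1 and Ung passed as well (beside 5.96% of all genes called lower in KMS). Both Fignl1 and Neil3 missed the threshold when the genotype was the only term (adjusted p = 0.099 and 0.113, edgeR).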
